A study of Homo sapiens with 12 samples.

Results

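The 40 genes described here encode the proteins that license, start and carry out DNA replication and the cyclins, kinases and E2F factor that move a cell from G1 into S phase. They were taken as a list of gene symbols by function, and all 40 were found among the 28704 genes listed in either of the deposited count tables, each in both tables. RNA-seq counts per gene were compared in 12 libraries that form 4 groups of 3: Huh-7 cells transfected with siRNA against ARD1 (siARD1), Huh-7 cells transfected with a negative-control siRNA, and the same 2 groups from cells labelled Hep-3B. Huh-7 and Hep-3B are established human hepatoma cell lines. The siRNA target ARD1 is listed in the tables as NAA10 and encodes the enzyme of the N-terminal acetyltransferase NatA, which modifies nascent proteins. The dose, the time after transfection and the number of siRNAs are not stated in the labels used here. The labels do not say whether the 3 libraries of a group came from separate cultures, so p-values measure the spread between these libraries, which may be technical.

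Replication origins are licensed in G1, when the origin recognition complex (ORC), CDC6 and CDT1 load the ring of MCM2 to MCM7 onto DNA. In S phase MCM10, CDC45 and the GINS complex turn that ring into a moving helicase, and polymerases alpha, delta and epsilon copy the strands with the sliding clamp PCNA, which the RFC complex loads. Cyclin D with CDK4 and cyclin E with CDK2 phosphorylate the retinoblastoma protein and so free E2F factors, which switch on many of the genes described here. Hepatoma lines in culture cycle continuously, so these transcripts are measured in a mixed population, and in bulk RNA fewer cells in a given state and less RNA per cell cannot be told apart.

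The knockdown was checked first. Unless stated otherwise, log2 fold changes are siARD1 minus control, with the standard error and the Benjamini-Hochberg adjusted p of edgeR's quasi-likelihood test. NAA10 stood at 13.2, 9.86 and 9.99 CPM (read counts relative to library size, scaled with TMM factors within each line) in Huh-7 siARD1 libraries, against 165, 156 and 200.2 CPM in Huh-7 controls (log2 fold change -3.98, SE 0.13, adjusted p = 1.66e-08). The libraries labelled Hep-3B had 10.9, 15.6 and 14.4 CPM after siARD1, against 48.4, 58.7 and 58.7 CPM in controls (-2.01, SE 0.12, adjusted p = 1.36e-07). Total counts ran from 17327615 to 25960237 per library, and the lowest count of any listed gene in any library was 79, for CCNE2 in a Hep-3B control. Hep-3B is known for secreting albumin and alpha-fetoprotein, but the 6 libraries labelled Hep-3B held at most 6.20 CPM of ALB and 1.97 CPM of AFP. These libraries are therefore called by their label throughout. Of the 10 liver lineage markers, 5 fell and 0 rose in Huh-7, where their summed level ran from 27015 to 31504 CPM after siARD1 and from 35140 to 36682 CPM in controls. Of the 8 liver markers tested in the libraries labelled Hep-3B, 5 fell, with sums of 216 to 225 CPM after siARD1 and 404 to 489 CPM in controls. FGB made up most of the sums there, at 135 to 141 CPM after siARD1 and 297 to 368 CPM in controls. Among all genes tested, 18.9% fell in Huh-7 and 15.3% in the libraries labelled Hep-3B. Summed fibroblast markers (7 of 8 listed) ran from 35.0 to 38.0 CPM after siARD1 and from 47.8 to 54.6 CPM in controls of Huh-7. These sums (6 of 8 listed) ran in the libraries labelled Hep-3B from 137 to 173 CPM after siARD1 and from 163 to 174 CPM in controls, mostly LUM, a matrix gene at 104 to 145 CPM. KDR, an endothelial receptor, stood at 47.5 to 57.6 CPM after siARD1 and 33.4 to 42.3 CPM in controls there, and at 0 to 0.05 CPM in Huh-7. Summed endothelial markers ran from 10.8 to 13.2 CPM after siARD1 and from 13.1 to 14.4 CPM in controls of Huh-7 (4 of 5 listed), and from 63.4 to 76.2 and from 53.3 to 65.9 CPM in the libraries labelled Hep-3B (5 of 5). Leukocyte marker sums ran from 96.4 to 115 CPM after siARD1 and from 94.1 to 99.1 CPM in controls of Huh-7, where LYZ made up most, and stood at 3.48 CPM or less in the libraries labelled Hep-3B. PTPRC, the pan-leukocyte marker, was at 0.45 CPM or less in all 12 libraries. Keratinocyte marker sums ran from 7.16 to 8.37 CPM after siARD1 and from 7.67 to 8.18 CPM in controls of Huh-7, and from 9.12 to 9.72 and from 13.6 to 16.2 CPM in the libraries labelled Hep-3B, where TP63 made up most and KRT14 was at 0.06 CPM or less. The part of these marker shifts in the results below was not tested.

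In Huh-7 the replication and G1/S genes moved mostly upward after siARD1, by small amounts. Of the 40, 17 rose, 2 fell (POLE2 and CDK2) and 21 did not pass edgeR's quasi-likelihood test at an adjusted p of 0.05. Across all 15919 genes tested in Huh-7, 40.1% passed in either direction, 21.2% higher and 18.9% lower, so the members' share of 47.5% stood above that of all genes only on the higher side. The members' log2 fold changes (siARD1 minus control) ran from -0.28 for POLE2 to 0.68 for GINS3, with a median of 0.15, against a median of -0.01 over all genes tested. The split between directions depended on scaling: with upper-quartile factors 11 members rose and 2 fell, while 39.7% of all changed genes were higher, against 52.9% with the scaling used here. The 6 calls lost with those factors were MCM3, MCM6, MCM7, ORC6, RFC3 and TK1. With both lines in one fit 10 rose and 1 fell, and the calls of MCM3, MCM4, MCM6, MCM7, ORC6, MCM10, TK1 and POLE2 were lost. The number that rose was 12 without control 1 and 12 without siARD1 library 3.

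In the libraries labelled Hep-3B the same genes split in both directions, with larger single changes. Of the 40, 10 rose, 7 fell and 23 did not pass. Across the 15762 genes tested there, 32.2% passed, 16.8% higher and 15.3% lower, so the number of members that fell was near the background. Log2 fold changes ran from -0.55 for MCM5 to 0.97 for CCNE2, with a median of 0.08 against -0.01 over all genes tested. That median was under 0.01 without control 2, 0.16 without control 3, 0.17 without siARD1 library 2 and -0.0062 without siARD1 library 3, so its sign rests on siARD1 library 3. The count of 7 lower members was 4 without control 1, 3 without control 3, 2 without siARD1 library 1 and 4 without siARD1 library 2. It was 1 when GC content and length of each gene were entered as offsets per library, while the count of higher members stayed at 10.

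Group ranges were also compared without a model. In Huh-7 the 3 siARD1 values lay above all 3 control values for 20 members and below them for 1. Of all tested genes 50% did not overlap, 26.1% above and 23.9% below. For the libraries labelled Hep-3B they lay above for 10 and below for 6, where 45% of all genes did not overlap, 22.7% above and 22.3% below. An exact two-sided permutation test over 3 against 3 libraries cannot give a p under 0.1, and it gave 0.1 for each of these members. CDC6, ORC6, PCNA, FEN1, CCND1 and CDK4 rose in both lines. MCM3, MCM4 and MCM7 rose in Huh-7 and fell in the libraries labelled Hep-3B, and no member did the opposite. Another 8 rose in Huh-7 and did not pass in the libraries labelled Hep-3B, and 13 passed in neither line.

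**Figure D1:**
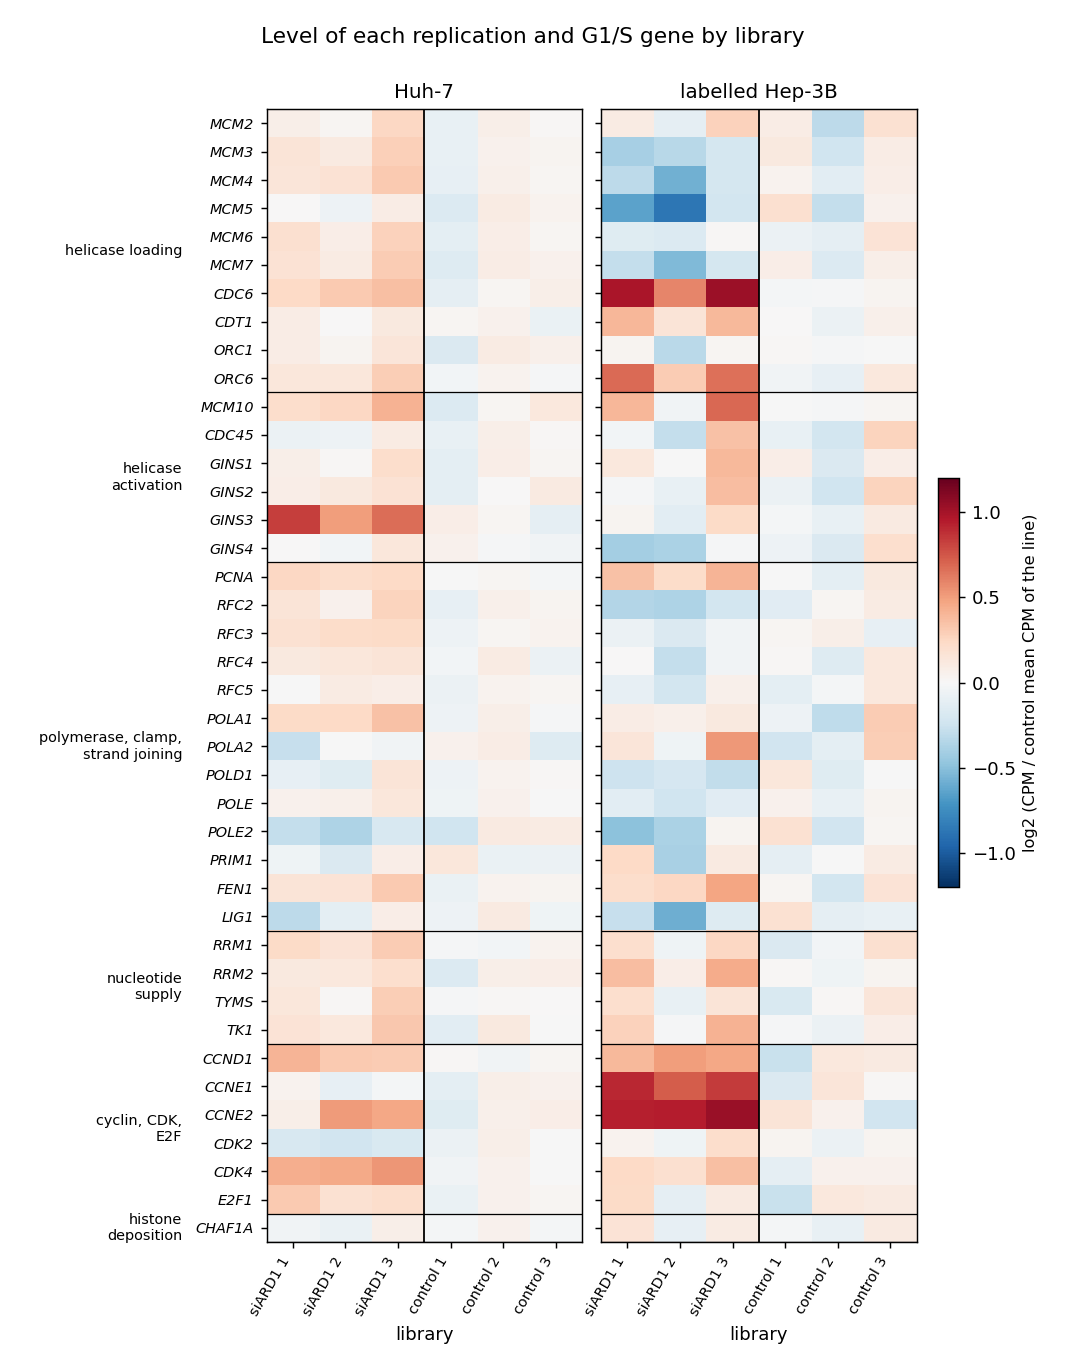
Level of each of the 40 genes in every library, as log2 of its CPM over the mean CPM of the 3 control libraries of the same line, with rows in order of function and siARD1 columns left of control columns. Red rows across siARD1 columns are seen for GINS3 and CDK4 in Huh-7 and for CDC6, ORC6, CCNE1 and CCNE2 in the libraries labelled Hep-3B, where MCM3, MCM4, MCM5 and MCM7 are blue.

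**Figure D2:**
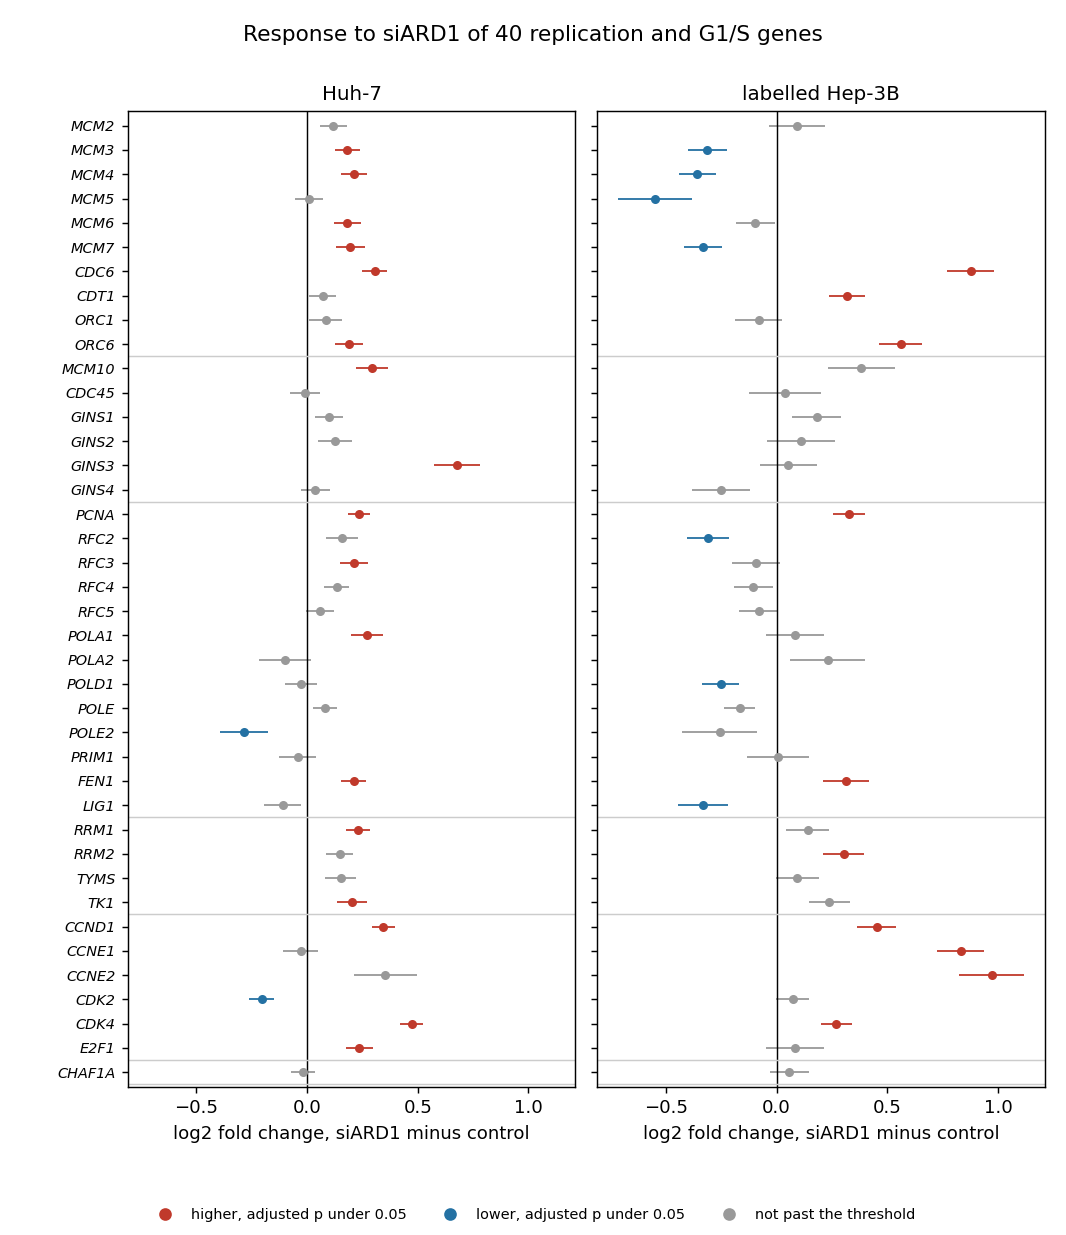
Log2 fold change (siARD1 minus control) of each gene in each line, with bars of 1 SE and colours for genes that passed edgeR's adjusted p of 0.05. Most Huh-7 points lie between 0 and 0.35, and points of the libraries labelled Hep-3B spread from -0.55 to 0.97.

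The promoters of 4 members are shown because their genes give 3 patterns of response. MCM3 and MCM7 moved in opposite directions in the 2 lines, CDC6 rose in both, and CCNE1 rose in the libraries labelled Hep-3B and did not pass in Huh-7. Each window holds the 250 bases before a RefSeq transcription start (assembly GRCh38.p14), read 5′ to 3′ on the gene's strand, at chr6:52284743-52284992 on the minus strand, chr7:100101398-100101647 on the minus strand, chr17:40287629-40287878 on the plus strand and chr19:29811741-29811990 on the plus strand. Capitals mark E2F letters (TTTGGCGC, TTTCCCGC, TTTCGCGC or TTTGCCGC) and CCAAT boxes (CCAAT), each on either strand, and the 2 kinds do not overlap in these windows. RefSeq lists 3 starts for MCM7, and the window shown is the one with E2F letters.
MCM3: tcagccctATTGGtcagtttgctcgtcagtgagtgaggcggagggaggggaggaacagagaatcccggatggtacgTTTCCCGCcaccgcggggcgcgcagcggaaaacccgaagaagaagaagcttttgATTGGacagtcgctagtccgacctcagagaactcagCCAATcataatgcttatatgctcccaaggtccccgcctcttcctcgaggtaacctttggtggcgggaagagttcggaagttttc
MCM7: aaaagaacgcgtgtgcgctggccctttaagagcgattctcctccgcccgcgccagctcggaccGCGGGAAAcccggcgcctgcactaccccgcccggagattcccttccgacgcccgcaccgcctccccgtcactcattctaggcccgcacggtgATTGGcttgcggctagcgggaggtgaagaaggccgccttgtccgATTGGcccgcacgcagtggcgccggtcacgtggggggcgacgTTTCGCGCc
CDC6: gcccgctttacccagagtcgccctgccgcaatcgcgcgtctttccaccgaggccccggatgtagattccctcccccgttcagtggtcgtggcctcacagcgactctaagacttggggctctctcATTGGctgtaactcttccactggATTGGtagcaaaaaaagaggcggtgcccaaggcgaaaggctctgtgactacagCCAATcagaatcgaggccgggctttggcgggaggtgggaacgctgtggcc
CCNE1: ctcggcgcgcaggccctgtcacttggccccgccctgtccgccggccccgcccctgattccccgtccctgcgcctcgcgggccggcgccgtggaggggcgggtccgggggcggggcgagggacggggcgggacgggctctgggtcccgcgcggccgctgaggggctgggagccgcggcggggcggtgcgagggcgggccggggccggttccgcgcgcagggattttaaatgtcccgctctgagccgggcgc

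A window was found for 34 of the 40 genes. A gene with several listed starts was counted if any of its windows held the letters. The number of starts was not matched between members and all genes. E2F letters stood in 13 of the 34 (38.2%), against 3.40% of 27305 genes with a window. CCAAT boxes stood in 20 of 34 (58.8%), against 37.0% of all genes, and the letters TTTGAA, known from cell cycle homology regions of G2/M genes, in 1 of 34 (2.94%), against 16.1%. Among members with a window, E2F letters were found in 7 of 15 that rose in Huh-7 and 6 of 18 that did not pass there. By calls in the libraries labelled Hep-3B they were found in 2 of 8 that rose, 3 of 5 that fell (MCM3, MCM7 and LIG1) and 8 of 21 that did not pass. MCM3 has 1 E2F match and 3 CCAAT boxes, the MCM7 window 2 of each, and CDC6 3 CCAAT boxes. The CCNE1 window holds neither set of letters. Only these exact letters were searched, so close variants, such as tttggcgg in the CDC6 window, are not marked. A window without a match is therefore not shown to lack E2F sites. A match is a description of letters and not of a bound site.

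Shared exon bases limit some members. In GENCODE v29, 12 of the 40 genes share over 10% of their exon bases with another gene, 3 on the same strand and 9 on the opposite strand. The libraries were made with a directional kit, but the sources do not state the strand setting of the counting, so reads of overlapping genes may not be told apart. The genes concerned include MCM2 (23.6%), GINS4 (23.6%), CDK2 (16.8%), GINS3 (10.9%), RFC5 (10.6%) and CCND1 (10.3%), and others are given with their values.

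Helicase loading genes rose in Huh-7 in 6 of 10 cases with 0 falling, at a median log2 fold change of 0.18. The 60% called there stood beside 40.1% of all genes. Of the same genes 3 rose and 4 fell in the libraries labelled Hep-3B (70% called, beside 32.2% of all genes). Their median was -0.09 in those libraries. It was -0.045 without control 3, -0.016 without siARD1 library 2 and -0.15 without siARD1 library 3. In the libraries labelled Hep-3B the loading factors CDC6, CDT1 and ORC6 went up, while MCM3, MCM4, MCM5 and MCM7 of the loaded ring went down. Within MCM2 to MCM7 the counts were 4 higher and 0 lower in Huh-7, and 0 higher and 4 lower in the libraries labelled Hep-3B. Medians were 0.18 and -0.32, with 66.7% called in each line. The Huh-7 count was 1 of 6 with upper-quartile factors and 0 of 6 with both lines in one fit, in both of which MCM5, not called in Huh-7 in any fit, had a negative sign. The count for the libraries labelled Hep-3B was 1 of 6 with GC and length offsets.

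MCM3 (ENSG00000112118, chr6:52264009-52284881), a subunit of the helicase ring, held 292, 284 and 319.9 CPM in Huh-7 siARD1 libraries, against 248, 273 and 269 CPM in Huh-7 controls. The groups did not overlap, with control 1 the lowest and siARD1 library 3 the highest (log2 fold change 0.18, SE 0.06, adjusted p = 0.014 by edgeR). MCM3 in the libraries labelled Hep-3B held 58.5, 61.1 and 66.3 CPM after siARD1, against 83.6, 65.3 and 81.7 CPM in controls. There siARD1 library 3 lay just above control 2, and the other controls stood apart at the top (log2 fold change -0.31, SE 0.09, adjusted p = 0.0127 by edgeR). The Huh-7 call was lost without control 1 or siARD1 library 3 (adjusted p = 0.0559 to 0.0593), and the other without control 3 or siARD1 library 1 (0.064 to 0.0656) or with GC and length offsets (0.0636).

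MCM4 (ENSG00000104738, chr8:47960185-47978160), another ring subunit, held 334, 340.2 and 375 CPM after siARD1 and 283, 315 and 308 CPM in controls of Huh-7. MCM4 in the libraries labelled Hep-3B held 217, 181 and 233 CPM after siARD1, against 278, 246 and 284 CPM in controls. The groups did not overlap in either line, and the order was reversed between lines. Log2 fold changes were 0.21 (SE 0.06, edgeR adjusted p = 0.00511) in Huh-7 and -0.36 (SE 0.09, adjusted p = 0.00594) in the libraries labelled Hep-3B. MCM4 alone among the 7 lower members kept its call there with GC and length offsets (log2 fold change -0.32, adjusted p = 0.0193). No single library ended either call, and the Huh-7 call was lost with both lines in one fit (0.19, adjusted p = 0.0613).

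MCM7 (ENSG00000166508, chr7:100092728-100101940) is the ring subunit with the highest level per length in both lines. It held 517, 490.5 and 565 CPM after siARD1 and 411, 486 and 476 CPM in controls of Huh-7, where siARD1 library 2 lay only just above control 2. MCM7 in the libraries labelled Hep-3B held 193, 163 and 203 CPM after siARD1, against 248, 209 and 247 CPM in controls, with all siARD1 values below all controls. EdgeR gave log2 fold changes of 0.20 (SE 0.07, adjusted p = 0.0219) in Huh-7 and -0.33 (SE 0.09, adjusted p = 0.00875) in the other line. The call in Huh-7 was lost without control 1 or siARD1 library 3 (adjusted p = 0.0779 to 0.0994), and the call in the libraries labelled Hep-3B with GC and length offsets (0.0923). Exons of AP4M1 on the opposite strand cover 8.94% of MCM7's exon bases, and AP4M1 moved by 0.34 in Huh-7 and -0.31 in the libraries labelled Hep-3B.

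The other ring subunits moved less evenly. MCM6 held 235, 217 and 249.7 CPM after siARD1 and 191, 218 and 209.9 CPM in controls of Huh-7, where siARD1 library 2 lay just below control 2 (log2 fold change 0.18, SE 0.06, adjusted p = 0.0191). That call was lost without control 1, siARD1 library 1 or siARD1 library 3 (adjusted p = 0.0557 to 0.0901). MCM6 did not pass in the libraries labelled Hep-3B (-0.10, adjusted p = 0.429). MCM5 showed the lowest log2 fold change of the 40 in the libraries labelled Hep-3B, with 17.9, 15.4 and 24.1 CPM after siARD1, against 32.1, 23.1 and 29 CPM in controls (-0.55, SE 0.17, adjusted p = 0.0286). Its siARD1 library 3 lay above control 2, and the call was lost without control 1, control 3, siARD1 library 1 or siARD1 library 2 (adjusted p = 0.0673 to 0.102) or with GC and length offsets (0.103). In Huh-7 MCM5 had a log2 fold change of 0.01 (adjusted p = 0.929). MCM2 passed in neither line, at 0.12 (adjusted p = 0.127) in Huh-7 and 0.09 (0.615) in the libraries labelled Hep-3B.

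CDC6 (ENSG00000094804, chr17:40287633-40304657), the ATPase that brings the ring to ORC, rose in both lines. It held 121, 127 and 131 CPM in Huh-7 siARD1 libraries, against 95.2, 104 and 108 CPM in Huh-7 controls (log2 fold change 0.31, SE 0.06, adjusted p = 0.000209). Hep-3B-labelled siARD1 libraries held 44.9, 34.3 and 46.5 CPM of CDC6, against 22.5, 22.6 and 23.3 CPM in Hep-3B-labelled controls (0.88, SE 0.11, adjusted p = 1.72e-05). The 3 controls labelled Hep-3B lay close together, and siARD1 library 2, the lowest of its group, was still well above them. No single library, scaling or tool ended either call.

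ORC6, the smallest ORC subunit, also rose in both lines. It held 64.8, 65.1 and 72.5 CPM after siARD1 and 57.7, 60.9 and 58.7 CPM in controls of Huh-7 (log2 fold change 0.19, SE 0.06, adjusted p = 0.0193). The values in the libraries labelled Hep-3B were 99.3, 76.5 and 98 CPM after siARD1, against 60.2, 57.8 and 67.4 CPM in controls (0.56, SE 0.10, adjusted p = 0.000599). Groups did not overlap in either line, but the Huh-7 call was lost without control 1, control 3 or siARD1 library 3 (adjusted p = 0.0535 to 0.0938). CDT1, the partner of CDC6 in loading, held 51.4, 43.5 and 51.1 CPM after siARD1 and 39.2, 37.1 and 40.7 CPM in controls of the libraries labelled Hep-3B (0.32, SE 0.08, adjusted p = 0.0073), with no overlap. In Huh-7 CDT1 did not pass (0.07, adjusted p = 0.378), though it did with GC and length offsets (0.21, 0.00526). ORC1, the largest ORC subunit, passed in neither line, at 0.08 (adjusted p = 0.391) and -0.08 (0.599).

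**Figure D3:**
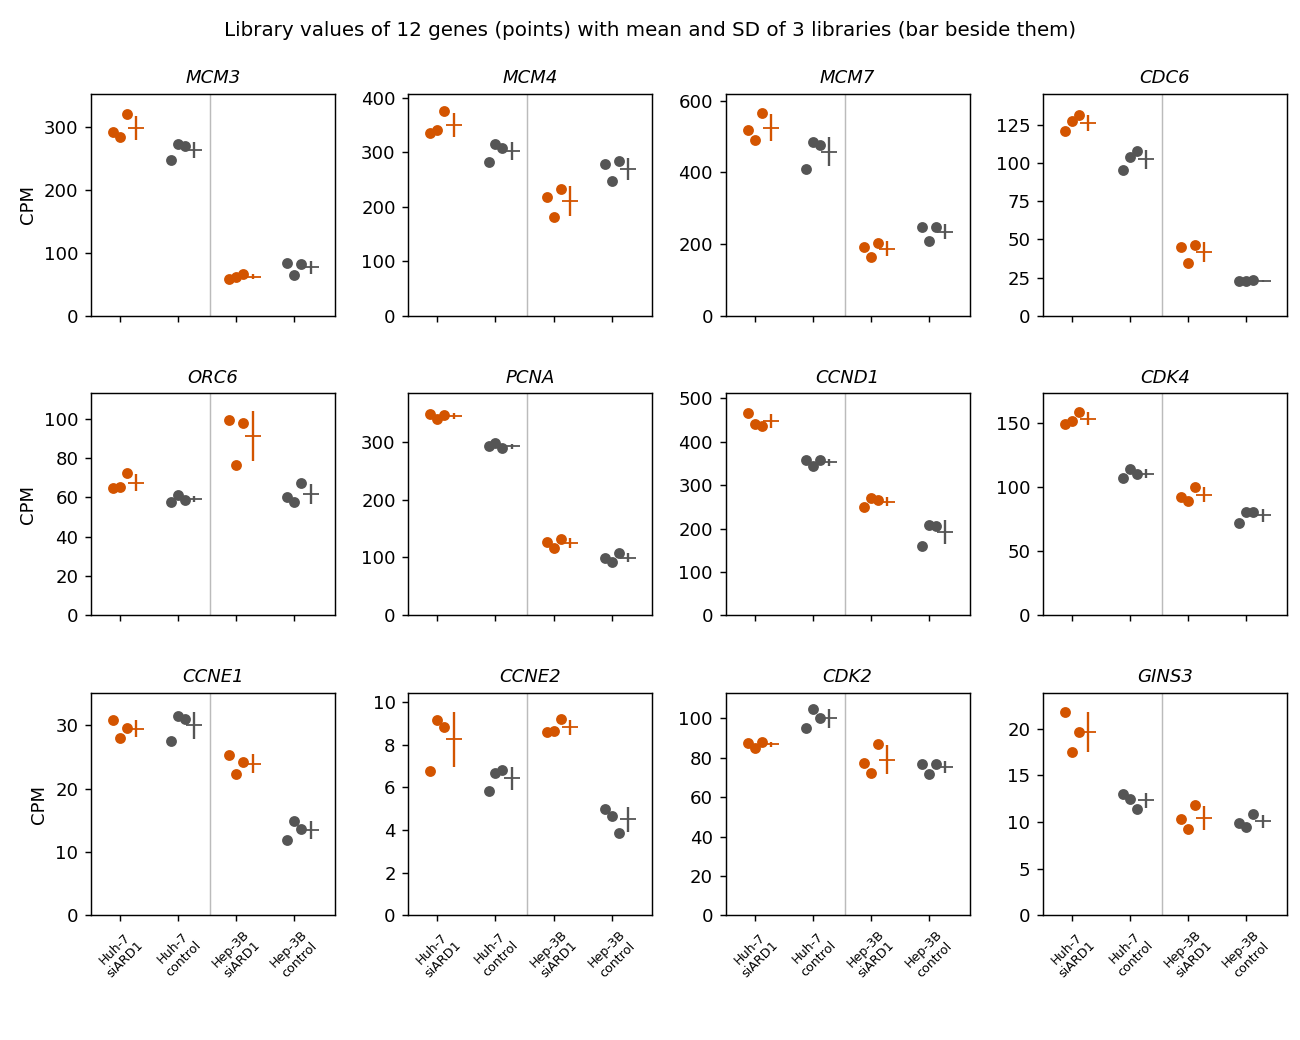
CPM of 12 genes in each library (points) with the mean and SD of 3 libraries beside them, siARD1 in orange and control in grey, Huh-7 at the left and the libraries labelled Hep-3B at the right of each panel. MCM3, MCM4 and MCM7 lie above the controls in Huh-7 and mostly below them in the libraries labelled Hep-3B, and CCNE1 separates only in the libraries labelled Hep-3B, where it stands at 22.3 to 25.2 CPM after siARD1 and 12 to 14.8 CPM in controls.

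Of the 6 helicase activation genes, GINS3 and MCM10 rose and 0 fell in Huh-7 (median 0.11), and 0 passed in either direction in the libraries labelled Hep-3B. These shares of 33.3% and 0% lay below the 40.1% and 32.2% of all genes. The median in the libraries labelled Hep-3B was 0.08. It was 0.21 without control 3, 0.19 without siARD1 library 2, under 0.01 without control 2 and -0.051 without siARD1 library 3. GINS3 (ENSG00000181938, chr16:58295080-58406144), a subunit of the GINS complex, held 21.8, 17.5 and 19.6 CPM after siARD1 and 13, 12.5 and 11.4 CPM in controls of Huh-7, the largest log2 fold change of the 40 genes there (0.68, SE 0.10, adjusted p = 2.16e-05). GINS3 in the libraries labelled Hep-3B held 10.3, 9.25 and 11.8 CPM after siARD1, against 9.91, 9.45 and 10.9 CPM in controls, with overlapping groups (0.05, adjusted p = 0.789). The Huh-7 groups were far apart, and no setting ended that call. The other GINS subunits did not pass in Huh-7, with log2 fold changes of 0.10 for GINS1, 0.12 for GINS2 and 0.04 for GINS4. The sign of GINS4 there was negative with upper-quartile factors (-0.027). GINS4 in the libraries labelled Hep-3B stood at -0.25 (adjusted p = 0.152).

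MCM10, which helps to start the helicase, held 76.2, 78.2 and 87.9 CPM after siARD1 and 58.5, 67 and 71.6 CPM in controls of Huh-7 (0.30, SE 0.07, adjusted p = 0.00274), with no overlap. MCM10 in the libraries labelled Hep-3B held 16, 11.9 and 19.7 CPM after siARD1, against 12.2, 12.1 and 12.4 CPM in controls (0.38, adjusted p = 0.0679). There siARD1 library 2 lay below all 3 controls, and without it MCM10 passed (0.56, adjusted p = 0.00257). It also passed there with the replicate number as a block and with no filter on low counts, and the difference between the lines did not pass (-0.11, adjusted p = 0.72). CDC45, the helicase cofactor, had log2 fold changes of -0.01 in Huh-7 and 0.04 in the libraries labelled Hep-3B and passed in neither.

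Among genes of the polymerases, the clamp and strand joining, 4 of 13 rose and 1 fell in Huh-7 (median 0.08), and 2 rose and 3 fell in the libraries labelled Hep-3B (median -0.09). The share called was 38.5% in each line, near the 40.1% of all genes in Huh-7 and the 32.2% of all genes in the libraries labelled Hep-3B. The median in the libraries labelled Hep-3B was -0.038 without control 3, -0.021 without siARD1 library 2 and -0.13 without siARD1 library 3. PCNA, FEN1, RFC3 and POLA1 rose in Huh-7 and POLE2 fell. PCNA and FEN1 rose in the libraries labelled Hep-3B, where RFC2, POLD1 and LIG1 fell. With upper-quartile factors RFC3 did not pass in Huh-7 (log2 fold change 0.15, adjusted p = 0.0606).

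PCNA (ENSG00000132646, chr20:5114953-5126626), the sliding clamp, held 347, 338 and 346 CPM in Huh-7 siARD1 libraries, against 292, 297 and 288 CPM in Huh-7 controls (log2 fold change 0.23, SE 0.05, adjusted p = 0.000645). PCNA in the libraries labelled Hep-3B held 127, 116 and 132 CPM after siARD1, against 99.4, 91.5 and 108 CPM in controls (0.33, SE 0.07, adjusted p = 0.0026). The siARD1 values lay above all controls in both lines, and both calls held in every setting run. FEN1, the flap endonuclease that trims Okazaki fragments, held 284, 286 and 317 CPM after siARD1 and 242, 263 and 261 CPM in controls of Huh-7 (0.21, SE 0.06, adjusted p = 0.00467). FEN1 values in the libraries labelled Hep-3B were 28.6, 29.3 and 34.3 CPM after siARD1, against 25.2, 21.2 and 27.8 CPM in controls (0.31, SE 0.11, adjusted p = 0.0309). The groups did not overlap in either line, but in the libraries labelled Hep-3B the call was lost without control 2 or siARD1 library 3 (adjusted p = 0.156 to 0.157).

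POLA1, the catalytic subunit of polymerase alpha, held 38.9, 39.1 and 42.2 CPM after siARD1 and 31.8, 34.9 and 32.9 CPM in controls of Huh-7 (0.27, SE 0.07, adjusted p = 0.00448). Its log2 fold change in the libraries labelled Hep-3B was 0.08 (adjusted p = 0.662). Its partners in priming, POLA2 and PRIM1, passed in neither line, with log2 fold changes of -0.10 and -0.04 in Huh-7 and 0.23 and 0.01 in the libraries labelled Hep-3B. Other genes on the same strand cover 35.1% of POLA2's exon bases and 16.2% of PRIM1's in GENCODE v29.

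POLD1, the catalytic subunit of polymerase delta, held 39.1, 40.4 and 38 CPM after siARD1 and 51.3, 42 and 46.4 CPM in controls of the libraries labelled Hep-3B (-0.25, SE 0.08, adjusted p = 0.0273). The groups did not overlap, but the call was lost without control 1, control 3, siARD1 library 1 or siARD1 library 3 (adjusted p = 0.0607 to 0.114) or with GC and length offsets (0.11). In Huh-7 POLD1 had a log2 fold change of -0.03 (adjusted p = 0.796). POLE, the catalytic subunit of polymerase epsilon, passed in neither line, at 0.08 (adjusted p = 0.237) in Huh-7 and -0.17 (0.0744) in the libraries labelled Hep-3B, although its groups did not overlap in either. POLE2, an accessory subunit of the same polymerase, held 13.4, 12.6 and 14.3 CPM after siARD1 and 13.8, 17.6 and 17.4 CPM in controls of Huh-7 (-0.28, SE 0.11, adjusted p = 0.0409). The groups overlapped, since control 1 lay within the siARD1 range, and the call was lost without control 2, control 3, siARD1 library 1 or siARD1 library 2 (adjusted p = 0.0919 to 0.174). Its log2 fold change in the libraries labelled Hep-3B was -0.26 (adjusted p = 0.266).

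The 4 clamp loader subunits had positive log2 fold changes in Huh-7, where RFC3 passed, and negative ones in the libraries labelled Hep-3B, where RFC2 passed. RFC5 in Huh-7 turned to -0.0038 with upper-quartile factors. RFC3 held 55.5, 57 and 57.3 CPM after siARD1 and 46.9, 49.5 and 50.1 CPM in controls of Huh-7 (0.21, SE 0.06, adjusted p = 0.00921), with no overlap. Its log2 fold change in the libraries labelled Hep-3B was -0.09 (adjusted p = 0.555). RFC2 held 19.96, 19.7 and 21.9 CPM after siARD1 and 23.1, 25.9 and 27.3 CPM in controls of the libraries labelled Hep-3B (-0.31, SE 0.10, adjusted p = 0.0203), with no overlap. That call was lost without control 2, control 3, siARD1 library 1 or siARD1 library 2 (adjusted p = 0.0618 to 0.0909) or with GC and length offsets (0.0969). In Huh-7 RFC2 stood at 0.16 (adjusted p = 0.0888) and passed without siARD1 library 2 (0.21, adjusted p = 0.0394). RFC4 and RFC5 passed in neither line, with log2 fold changes of 0.13 and 0.06 in Huh-7 and -0.10 and -0.08 in the libraries labelled Hep-3B. RFC4 passed in Huh-7 without control 2 (0.19, adjusted p = 0.0273).

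LIG1, the ligase that seals Okazaki fragments, held 27.2, 21.9 and 29.6 CPM after siARD1 and 37.4, 30.6 and 31 CPM in controls of the libraries labelled Hep-3B (-0.33, SE 0.11, adjusted p = 0.0322). The groups did not overlap, but the call was lost without control 1, siARD1 library 1 or siARD1 library 2 (adjusted p = 0.0645 to 0.138) or with GC and length offsets (0.118). In Huh-7 its log2 fold change was -0.11 (adjusted p = 0.318), and it passed as lower without siARD1 library 3 (-0.21, adjusted p = 0.039). CHAF1A, a subunit of the factor that deposits histones behind the fork, passed in neither line, at -0.02 (adjusted p = 0.805) in Huh-7 and 0.06 (0.66) in the libraries labelled Hep-3B.

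Of the 4 nucleotide supply genes, 2 rose in Huh-7 (median 0.18) and 1 in the libraries labelled Hep-3B (median 0.19), with 0 falling in either. That is 50% and 25% called, beside 40.1% of all genes in Huh-7 and 32.2% in the libraries labelled Hep-3B. The second share lay below that of all genes. RRM1 and RRM2 encode the large and small subunits of ribonucleotide reductase, which makes deoxyribonucleotides. RRM1 held 157, 150.3 and 165 CPM after siARD1 and 133, 131 and 138 CPM in controls of Huh-7 (0.23, SE 0.05, adjusted p = 0.00143), with no overlap. Hep-3B-labelled siARD1 libraries held 185, 156 and 192 CPM of RRM1, against 143, 158 and 184 CPM in Hep-3B-labelled controls, and the groups overlapped (0.14, adjusted p = 0.293). RRM2 held 248, 249 and 263 CPM after siARD1 and 204, 239.95 and 242 CPM in controls of Huh-7 (0.15, adjusted p = 0.0576), and passed without control 2 or control 3 (0.19, adjusted p = 0.042 to 0.048). Its values in the libraries labelled Hep-3B were 44.4, 36.3 and 46.7 CPM after siARD1, against 34.7, 33.3 and 35.2 CPM in controls (0.30, SE 0.09, adjusted p = 0.0188). That call was lost without control 2, siARD1 library 1 or siARD1 library 3 (adjusted p = 0.0699 to 0.107), and 20.2% of RRM2's exon bases are shared with another gene on the same strand.

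TK1, the thymidine kinase of the salvage route, held 76.8, 74.7 and 85.7 CPM after siARD1 and 62.9, 74.3 and 68.5 CPM in controls of Huh-7 (0.20, SE 0.07, adjusted p = 0.0203). Control 2 lay just below the lowest siARD1 value, and the call was lost without control 1, control 3 or siARD1 library 3 (adjusted p = 0.0613 to 0.101). TK1 in the libraries labelled Hep-3B held 114, 93.1 and 126 CPM after siARD1, against 93.1, 89.9 and 99.2 CPM in controls (0.24, adjusted p = 0.0639). There siARD1 library 2 lay within the control range, and without it TK1 passed (0.35, adjusted p = 0.00178). TYMS, the enzyme that makes thymidylate from deoxyuridylate, held 60.7, 56 and 67.7 CPM after siARD1 and 54.6, 56 and 55.4 CPM in controls of Huh-7 (0.15, adjusted p = 0.0825). It passed without siARD1 library 2 (0.22, adjusted p = 0.0194). TYMS in the libraries labelled Hep-3B held 41.9, 34.2 and 40.5 CPM after siARD1, against 32.2, 36.9 and 40.3 CPM in controls (0.09, adjusted p = 0.502). Genes on the opposite strand, ENOSF1 and TYMSOS, cover 46.6% of TYMS's exon bases.

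Cyclin, CDK and E2F genes had the highest medians of the role groups in both lines, 0.29 in Huh-7 with 3 of 6 higher and 1 lower, and 0.36 in the libraries labelled Hep-3B with 4 of 6 higher and 0 lower. In each line 66.7% of them were called, beside 40.1% of all genes in Huh-7 and 32.2% in the libraries labelled Hep-3B. CCND1 and CDK4, the cyclin and kinase of early G1, rose in both lines. The cyclin E genes CCNE1 and CCNE2 rose in the libraries labelled Hep-3B. CDK2, the kinase partner of cyclin E, fell in Huh-7, and E2F1 rose there.

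CCND1 (ENSG00000110092, chr11:69641087-69654474) held 467, 440.4 and 437 CPM in Huh-7 siARD1 libraries, against 357, 344 and 358 CPM in Huh-7 controls (log2 fold change 0.34, SE 0.05, adjusted p = 1.7e-05). CCND1 in the libraries labelled Hep-3B held 250.5, 271 and 265 CPM after siARD1, against 159, 209 and 207 CPM in controls, of which control 1 was lowest (0.45, SE 0.09, adjusted p = 0.00171). No setting ended either call. CDK4 (ENSG00000135446, chr12:57747727-57756013) held 149, 151 and 159 CPM after siARD1 and 107, 114 and 109.9 CPM in controls of Huh-7 (0.47, SE 0.05, adjusted p = 3.34e-07), the smallest adjusted p of the 40. Hep-3B-labelled siARD1 libraries held 92, 89.4 and 100.5 CPM of CDK4, against 72.3, 80.9 and 80.9 CPM in Hep-3B-labelled controls (0.27, SE 0.07, adjusted p = 0.00788). Both genes separated the groups fully in both lines. TSPAN31, on the opposite strand, covers 43.2% of CDK4's exon bases, and its own log2 fold changes were -0.28 in Huh-7 and -0.16 in the libraries labelled Hep-3B. LTO1, on the opposite strand, covers 10.3% of CCND1's exon bases. It rose by 0.30 in Huh-7 (edgeR adjusted p = 0.00282) and moved by -0.08 in the libraries labelled Hep-3B. The part of reads from these overlapping genes was not tested.

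CCNE1 (ENSG00000105173, chr19:29811898-29824308) held 25.2, 22.3 and 24.1 CPM after siARD1 and 12, 14.8 and 13.6 CPM in controls of the libraries labelled Hep-3B (0.83, SE 0.11, adjusted p = 2.53e-05). In Huh-7 it held 30.8, 28 and 29.5 CPM after siARD1, against 27.6, 31.4 and 31 CPM in controls (-0.03, adjusted p = 0.799). The Huh-7 groups overlapped, and in the libraries labelled Hep-3B every siARD1 value lay above every control. CCNE2 held 8.57, 8.64 and 9.21 CPM after siARD1 and 5.0, 4.64 and 3.83 CPM in controls of the libraries labelled Hep-3B (0.97, SE 0.15, adjusted p = 0.000133), and 0.69 with GC and length offsets (adjusted p = 0.00177). In Huh-7 CCNE2 held 6.76, 9.13 and 8.84 CPM after siARD1, against 5.81, 6.68 and 6.79 CPM in controls (0.35, adjusted p = 0.0541). There siARD1 library 1 lay within the control range, and without it CCNE2 passed (0.48, adjusted p = 0.0136). It was the least abundant member per length in both lines, and genes on the opposite strand, INTS8 among them, cover 37.1% of its exon bases. INTS8 itself moved by -0.06 in Huh-7 and rose by 0.19 in the libraries labelled Hep-3B (edgeR adjusted p = 0.0233). The part of INTS8 reads in the CCNE2 values was not tested.

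CDK2 (ENSG00000123374, chr12:55966769-55972784) held 87.3, 85.2 and 88 CPM after siARD1 and 95.3, 105 and 100.02 CPM in controls of Huh-7 (-0.21, SE 0.06, adjusted p = 0.00498), the only member whose Huh-7 siARD1 values all lay below the controls. CDK2 in the libraries labelled Hep-3B held 77.4, 72.4 and 87 CPM after siARD1, against 76.8, 71.6 and 76.9 CPM in controls (0.07, adjusted p = 0.494). E2F1, the activator factor, held 85.2, 77.4 and 79 CPM after siARD1 and 64.6, 71 and 69.5 CPM in controls of Huh-7 (0.24, SE 0.06, adjusted p = 0.00359). E2F1 in the libraries labelled Hep-3B held 14.9, 11.9 and 13.7 CPM after siARD1, against 10.6, 13.9 and 13.7 CPM in controls, with overlapping groups (0.08, adjusted p = 0.664).

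The difference between the 2 responses was tested in one edgeR fit of the 4 groups, as the Huh-7 response minus the response in the libraries labelled Hep-3B. It passed for 11 of the 40 members, 6 positive and 5 negative, where 31.4% of the 17122 genes tested passed, 15.2% positive and 16.2% negative, so the members' share of 27.5% was below that of all genes. The positive ones were GINS3 (0.61, SE 0.17, adjusted p = 0.00659), MCM4 (0.55, SE 0.11, adjusted p = 0.00051), MCM7 (0.51, SE 0.12, adjusted p = 0.00393), MCM3 (0.48, SE 0.11, adjusted p = 0.00157), RFC2 (0.45, SE 0.12, adjusted p = 0.00543) and POLE (0.23, SE 0.09, adjusted p = 0.0451). The negative ones were CCNE1 (-0.88, SE 0.13, adjusted p = 1.1e-05), CCNE2 (-0.63, SE 0.21, adjusted p = 0.0222), CDC6 (-0.59, SE 0.12, adjusted p = 0.000484), ORC6 (-0.39, SE 0.12, adjusted p = 0.0141) and CDK2 (-0.29, SE 0.10, adjusted p = 0.0186). The response of MCM3, MCM4 and MCM7 was thus higher in Huh-7, and that of the cyclin E genes and of the loaders CDC6 and ORC6 was higher in the libraries labelled Hep-3B. Of the 8 genes that rose in Huh-7 and did not pass in the libraries labelled Hep-3B, GINS3 alone passed this test. MCM6, MCM10, RFC3, POLA1, RRM1, TK1 and E2F1 did not pass it. MCM6 (log2 difference 0.26, adjusted p = 0.0619) and RFC3 (0.29, adjusted p = 0.0612) lay near the threshold. The difference of MCM6 passed in 9 of the other settings, among them the replicate block and no filter on low counts, and that of RFC3 in 4, among them DESeq2.

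Of the 6 ring subunits, 3 passed edgeR's test of the difference, all positive, and MCM2 (0.01, adjusted p = 0.969), MCM5 (0.54, 0.0865) and MCM6 (0.26, 0.0619) did not. The calls for MCM3, MCM4, MCM7, CDC6, GINS3, RFC2 and CCNE1 held in all settings run at an adjusted p of 0.05. ORC6 was lost without Hep-3B siARD1 library 1 (adjusted p = 0.0506). CDK2 was lost without Huh-7 control 2, Hep-3B control 2 or Hep-3B siARD1 library 3 (0.0605 to 0.0865). CCNE2 was lost without Huh-7 control 2, Huh-7 control 3, Huh-7 siARD1 library 1 or Hep-3B control 3 (0.0505 to 0.0753), and with GC and length offsets (-0.31, 0.277). POLE was lost without any 1 of 9 libraries, all but Huh-7 control 2 and Hep-3B controls 1 and 2 (0.0506 to 0.119).

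Per kilobase of merged exon length, PCNA had the highest level in both lines, 199 ± 2.92 CPM per kb in Huh-7 controls and 67.6 ± 5.50 in controls labelled Hep-3B (SD, n = 3 each). In Huh-7 MCM7 (104 ± 9.28) and FEN1 (103 ± 4.81) came next and did not differ beyond their spread, nor did CCND1 (73.1 ± 1.67) and MCM3 (72.1 ± 3.66) after them. In controls labelled Hep-3B the order after PCNA was MCM7 (53.5 ± 4.99) and TK1 (50.5 ± 2.56), within their spread, then CCND1 (39.7 ± 5.84), MCM4 (38.6 ± 2.92) and RRM1 (38.6 ± 4.97), also within it. GINS3, POLA2 and CCNE2 were the lowest 3 in both lines, at 2.41, 2.06 and 1.46 CPM per kb in Huh-7 controls and 1.97, 1.44 and 1.02 in controls labelled Hep-3B. Among ring subunits, which the complex holds in equal numbers, Huh-7 control levels spanned 17.7 for MCM5 to 104 for MCM7, and controls labelled Hep-3B 3.82 to 53.5. Merged exon length takes in the exons of every annotated transcript, 7338 bases for MCM5 and 4386 for MCM7, so part of this span rests on annotation. Without division by length, MCM5 and MCM7 stood at 130 and 458 CPM in Huh-7 controls. In controls labelled Hep-3B they stood at 28.1 and 235 CPM.

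**Figure D4:**
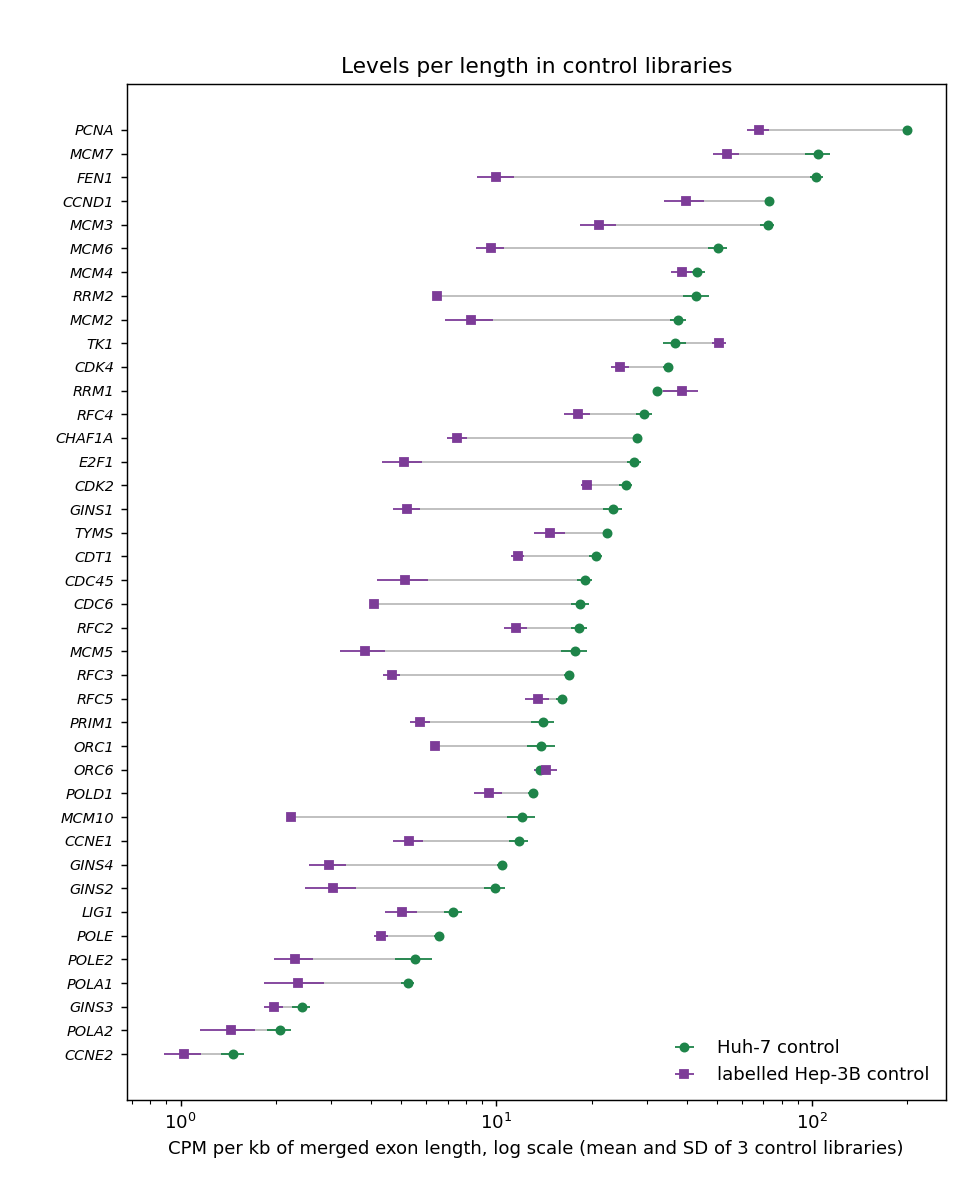
Mean level (CPM scaled within each line) per kilobase of merged exon length in control libraries of Huh-7 (circles) and of the libraries labelled Hep-3B (squares), on a log axis, with bars of the SD (n = 3 each), in order of the Huh-7 level. Circles lie right of squares for most genes, with the widest gap at FEN1, and TK1, RRM1 and ORC6 lie the other way.

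Controls of Huh-7 held more of most of these transcripts than controls labelled Hep-3B. The control contrast (Huh-7 minus Hep-3B) passed for 37 of 40 members, 34 higher and 3 lower in Huh-7, where 80.7% of all genes passed, 40.7% higher and 40% lower. The median log2 difference was 0.98, against 0.03 over all genes. The largest were FEN1 (3.20, SE 0.09, adjusted p = 8.89e-22), RRM2 (2.57), E2F1 (2.27), MCM10 (2.27) and MCM6 (2.22). Lower in Huh-7 were TK1 (-0.62, SE 0.09, adjusted p = 2.06e-06), RRM1 (-0.43) and ORC6 (-0.23), and MCM4, GINS3 and RFC5 did not pass (adjusted p = 0.993, 0.36 and 0.283). The line and the table it was deposited in cannot be told apart.

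Libraries of 1 group did not vary gene by gene. In Huh-7, siARD1 library 3 held the highest of the 3 siARD1 values for 32 of the 40 members, and control 1 the lowest control value for 31. In the libraries labelled Hep-3B, siARD1 library 2 was lowest for 33, siARD1 library 3 highest for 28, control 2 lowest for 27 and control 3 highest for 25. The summed CPM of the 40 genes was 5020.2, 4906 and 5344 in Huh-7 siARD1 libraries, against 4274, 4660.3 and 4573 in Huh-7 controls. The sum in the libraries labelled Hep-3B was 2219, 1985 and 2359 after siARD1, against 2079, 1993 and 2249 in controls. The Huh-7 sums did not overlap between groups and the others did, and members of 1 library share its cells, so 40 genes are not 40 separate observations of a condition.

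GC content moved with the response in the libraries labelled Hep-3B. Over 15207 genes with annotation the Spearman correlation of the log2 fold change with GC content of the longest transcript was -0.29 there, and -0.01 over 15328 genes in Huh-7, as a description across genes that share libraries. The 7 members that fell in the libraries labelled Hep-3B had a median GC content of 56.4%, against 48.3% for all genes tested and 48.9% for the 10 that rose. With GC and length offsets per library, an alternative chosen after the data were seen, 10 members rose and 1 fell there, and 23 rose and 2 fell in Huh-7. These offsets also moved the split of all changed genes. The share that was higher was 59.2% in Huh-7, against 52.9% as reported. In the libraries labelled Hep-3B it was 48.0%, against 52.3%. The difference between lines kept its call for MCM3 (0.44, adjusted p = 0.00187), MCM4 (0.54, 0.00114) and MCM7 (0.50, 0.0183). It was also called for MCM6 (0.37), RFC3 (0.53), RFC4 (0.27) and POLD1 (0.31), and not for POLE and CCNE2. The part of GC content in the lower calls was not tested beyond these values.

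**Figure D5:**
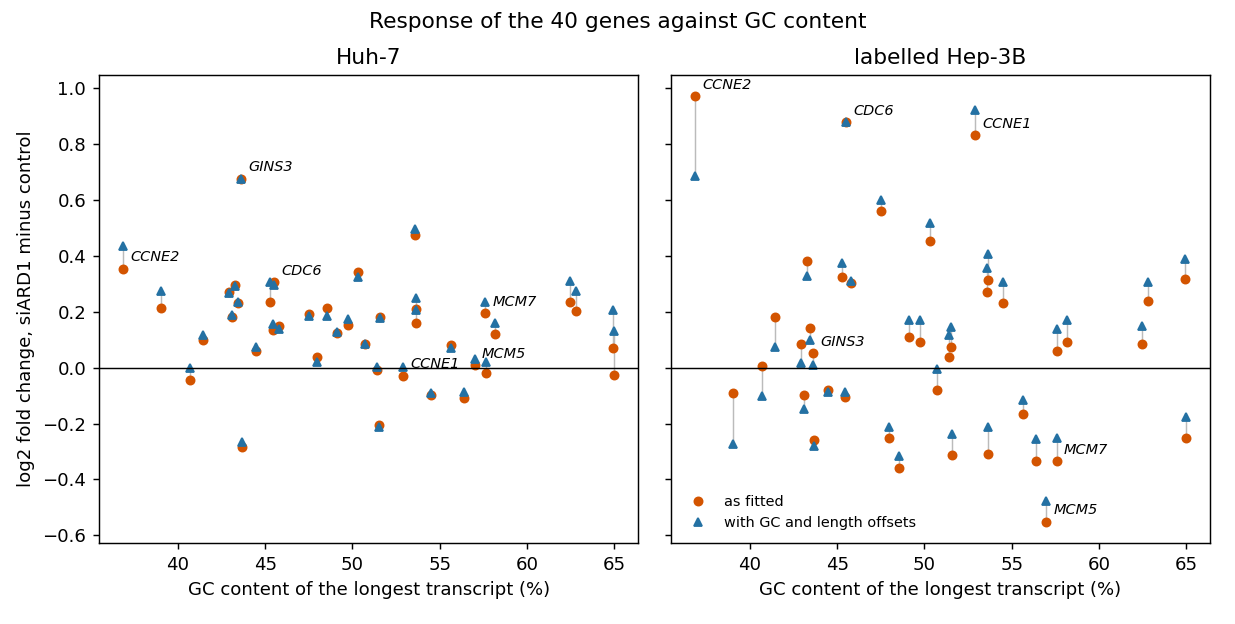
Log2 fold change of each of the 40 genes (siARD1 minus control) against the GC content of its longest transcript, as fitted (circles) and with GC and length offsets (triangles), Huh-7 at the left and the libraries labelled Hep-3B at the right. In the libraries labelled Hep-3B, MCM7 lies at -0.25 with offsets and -0.33 as fitted, and CCNE2, the gene of lowest GC content, at 0.69 and 0.97, while CDC6 lies at 0.88 in both.

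Other genes of the same pathways were counted from lists by function, beside the 40.1% (Huh-7) and 32.2% (libraries labelled Hep-3B) called among all genes. Of 36 tested fork and origin genes outside the 40, 13 rose and 4 fell in Huh-7, and 9 rose and 3 fell in the libraries labelled Hep-3B, shares of 47.2% and 33.3%, the second of which is near the background. CLSPN, the checkpoint adaptor claspin, rose in both, by 0.47 (adjusted p = 1.7e-05) in Huh-7 and 0.73 (0.000412) in the libraries labelled Hep-3B. ORC5 (0.48) and the fork protection pair TIPIN (0.51) and TIMELESS (0.35) rose in Huh-7. The histone chaperones ASF1A (0.42) and ASF1B (0.46) and the clamp unloader ATAD5 (0.72) rose in the libraries labelled Hep-3B, and ATAD5 fell in Huh-7 (-0.37, adjusted p = 0.00125).

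Of 11 other nucleotide supply genes, 3 rose and 1 fell in Huh-7, and 6 rose and 1 fell in the libraries labelled Hep-3B (36.4% and 63.6% called). CTPS1, which makes CTP, rose in Huh-7 (0.61, SE 0.06, adjusted p = 5.82e-08) and fell in the libraries labelled Hep-3B (-0.31, SE 0.10, adjusted p = 0.0274). NME1, a nucleoside diphosphate kinase, rose in both (0.40 and 0.45). In Huh-7 the mitochondrial thymidine kinase gene TK2 rose (0.41). In the libraries labelled Hep-3B RRM2B, an alternative small subunit of ribonucleotide reductase, rose by 0.78, the kinase gene DCK by 0.62 and the nucleoside transporter gene SLC29A1 by 0.43.

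Inhibitors and pocket proteins moved in both directions, 3 of 10 higher and 3 lower in each line (60% called). RBL2, the pocket protein p130, fell in both (-0.49 in Huh-7 and -0.47 in the libraries labelled Hep-3B), as did the CDK4 inhibitor gene CDKN2C (-0.51 and -0.73). CDKN2B, another CDK4 inhibitor, rose in Huh-7 (1.20, SE 0.12, adjusted p = 1.88e-07), where CDKN2D fell (-0.67). CDKN2A fell (-0.37) and RBL1, the pocket protein p107, rose (0.53) in the libraries labelled Hep-3B. RB1, the retinoblastoma gene, held 66.6, 70.3 and 69 CPM after siARD1 and 72.8, 72.3 and 80.03 CPM in controls of Huh-7 (-0.13, adjusted p = 0.0921). RB1 in the libraries labelled Hep-3B held 26.5, 29.8 and 30.8 CPM after siARD1, against 21.6, 22.2 and 23 CPM in controls (0.39, SE 0.09, adjusted p = 0.00341), and did not pass with GC and length offsets (0.10, 0.416). CDKN1A, the CDK inhibitor p21, did not pass in either line (-0.02, adjusted p = 0.85, and -0.04, 0.675).

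Of the other G1/S cyclins, kinases, E2Fs and degradation genes, 8 of 21 rose and 2 fell in Huh-7, and 9 of 22 rose and 1 fell in the libraries labelled Hep-3B (47.6% and 45.5% called). In Huh-7 the phosphatase gene CDC25A, which activates CDK2, rose by 0.49, the E2F genes E2F6 and E2F4 by 0.44 and 0.32, and the ubiquitin ligase gene CUL4A by 0.26. In the libraries labelled Hep-3B CDK6, the sister kinase of CDK4, rose by 0.74, CCND3 by 0.55, E2F2 by 0.76 and CDC34 by 0.37.

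Among G2/M and mitosis genes, 8 of 19 fell and 1 rose in Huh-7, with CENPE (-0.64), TTK (-0.36), KIF20A (-0.27) and CENPF (-0.23) among them. Of the same 19, 4 rose and 3 fell in the libraries labelled Hep-3B, so that 47.4% of the list were called in Huh-7 and 36.8% there. The median log2 fold change was -0.12 in Huh-7 and 0.01 in the libraries labelled Hep-3B. CENPE (1.01) and CDK1 (0.74) rose there, and CCNB2 (-0.41) and AURKA (-0.33) fell. Whether the share of cells in each phase of the cycle moved was not measured.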

How the data were processed

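RNA was sequenced from 12 libraries, 3 for each of 4 groups, and the authors deposited whole-number read counts per Ensembl gene in 1 table per line. Per the labels' protocols, total RNA was depleted of ribosomal RNA and made into directional libraries. Per the submitters' processing notes, cutadapt 4.6, STAR 2.7.11b and GRCh38 were used. No source used here names the counter, the annotation or the strand setting.

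The 40 members and all other lists were chosen with earlier results of these data known. Each line was fitted on its whole table with edgeR 4.0.16 (R 4.3.3): genes needed a count of 10 in enough libraries (filterByExpr), TMM factors, robust quasi-likelihood F-test, Benjamini-Hochberg threshold 0.05. Standard errors are approximate, each the size of the log2 fold change divided by the root of its F statistic. The difference between responses and the control contrast came from one fit of the 4 groups. The fits were tested on simulated counts. Symbols came from the gene name table, positions, exon lengths and overlaps from GENCODE v29 (GRCh38), and promoters from RefSeq.

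Genes named with full values are the members with the smallest p per role and line, all nucleotide supply and cyclin, CDK and E2F members, members called in opposite directions, and per other list up to 4 genes per line. Alternatives were DESeq2 1.42.0, limma-voom (limma 3.58.1), other scalings and filters, a replicate block, a single fit of both lines, each library left out, a trend on GC content and length removed (mgcv 1.9.3), and, chosen after seeing the data, GC and length offsets. Replicate numbers were not used to pair the libraries in the main fits. Some genes and 1 gene list are not reported here. Depth ran from 17327615 to 25960237 counts per library.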

Additional observations from a re-analysis of the deposited data

Results flagged for a closer look

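The values in this section are the Huh-7 response minus the response in the libraries labelled Hep-3B, on the log2 scale, for genes whose difference passed edgeR's test of that difference at an adjusted p of 0.05 over 17122 genes. Among the members, MCM3 (0.48), MCM4 (0.55) and MCM7 (0.51) were called in both lines, higher in Huh-7 and lower in the libraries labelled Hep-3B. The response was likewise higher in Huh-7 for GINS3 (0.61), RFC2 (0.45) and POLE (0.23). Of these, GINS3 rose in Huh-7, while RFC2 and POLE did not pass there. The response was lower in Huh-7 for the loaders CDC6 (-0.59) and ORC6 (-0.39), the cyclin E genes CCNE1 (-0.88) and CCNE2 (-0.63) and their kinase CDK2 (-0.29). CDC6 and ORC6 rose in both lines, less in Huh-7. CCNE1 and CCNE2 did not pass in Huh-7, and CDK2 fell there.

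Among genes of the other lists, the response was higher in Huh-7 for the stress cytokine gene GDF15 (1.31), the kinase gene PLK2 (1.03), the nuclease gene AEN (0.76), the inhibitors CDKN2B (0.96) and CDKN2A (0.38), the nucleotide genes CTPS1 (0.90) and TK2 (0.50), the fork gene TIMELESS (0.55), the ubiquitin ligase gene CUL4A (0.27) and the mitotic genes AURKA (0.47) and CCNB2 (0.28).

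It was lower in Huh-7 for the mitotic genes CENPE (-1.67), TTK (-1.18) and CDK1 (-0.86), the fork genes ATAD5 (-1.11) and ASF1B (-0.48), the nucleotide genes RRM2B (-1.02), DCK (-0.60) and SLC29A1 (-0.44), the DNA repair gene DDB2 (-0.84), the metabolic regulator gene TIGAR (-0.63), the inhibitors and pocket protein CDKN2D (-0.79) and RB1 (-0.53), and the G1/S genes CDK6 (-0.63), E2F2 (-0.60) and CCND3 (-0.47). The part of GC content in these differences was tested only through the offsets described above for the members.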

How the results depend on the processing

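No result that passed its test changed sign under any setting run. Of values that did not pass, MCM5, GINS4 and RFC5 in Huh-7 turned negative with upper-quartile factors, as did the medians of the 40 genes (-0.0062) and of helicase activation (-0.051) in the libraries labelled Hep-3B without siARD1 library 3, among others. In Huh-7 the members that changed numbered 11 with both lines in one fit, against 19 as reported. The higher ones numbered 11 with upper-quartile factors and 10 with both lines in one fit. The lower ones numbered 1 with DESeq2, 1 with both lines in one fit and 1 at an adjusted p of 0.01, and 1 to 3 without single libraries. The polymerase median in Huh-7 was 0.018 with upper-quartile factors and 0.14 with the GC and length trend removed, and the cyclin, CDK and E2F median was 0.23 with upper-quartile factors and 0.25 to 0.30 without single libraries. In the libraries labelled Hep-3B the members that changed numbered 11 with GC and length offsets, 10 at an adjusted p of 0.01 and 11 to 16 without single libraries. The lower ones numbered 1, 2 and 2 to 7 under these settings, and all genes changed there numbered 3073 at an adjusted p of 0.01. The cyclin, CDK and E2F median there was 0.44 with offsets, 0.44 with the trend removed and 0.28 to 0.41 without single libraries. Members whose responses differed numbered 7 at an adjusted p of 0.01. The smaller counts at 0.01 follow from the threshold, and the cause of the other shifts was not tested. Called in every setting run were 10 of 19 members in Huh-7, 9 of 17 in the libraries labelled Hep-3B and 7 of 11 for the difference. With the replicate number as a block, 21 members changed in Huh-7 (19 higher, 2 lower), 19 in the libraries labelled Hep-3B (12 higher, 7 lower) and 14 differed. Deviations of same-numbered libraries correlated at 0.05, -0.06 and 0.01 in Huh-7 and at 0.03, 0.07 and 0.06 in the libraries labelled Hep-3B, where each library correlated best with its own number. The lowest total of any member over the 3 libraries of a group was 274 counts, for CCNE2 in controls labelled Hep-3B.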
